A study of Mus musculus with 8 samples.

Results

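The genes described here are 8 receptors that brain vessels use to take up nutrients or to sense hormones: the transferrin receptor Tfrc, the insulin receptor Insr, the leptin receptor Lepr, the prolactin receptor Prlr, the lipoprotein and reelin receptor Lrp8, the receptor for advanced glycation end products Ager, and the insulin-like growth factor (IGF) receptors Igf1r and Igf2r. They were chosen by name, and every array probe whose transcript accession maps to one of them was followed. This gave 17 probes for 8 of the 20832 genes with a symbol on the array. Tfrc and Insr had 3 probes each, Lepr had 4, Prlr and Lrp8 had 2 each, and Ager, Igf1r and Igf2r had 1 each. Microvessels had been prepared from mouse forebrain at postnatal day 5 (P5), at postnatal day 10 (P10) and in adults, with 2 replicates of each age, by homogenisation, density sedimentation and filtration, which kept small vessel fragments. The labels give no strain, sex, adult age or number of pooled animals, and they do not say whether the replicates came from separate animals. The p-values thus measure only the spread between these 2 replicates, each on its own slide. In the fit, the variance of each probe was also drawn toward that of all probes. RNA of 2 ages, labelled with Cy5 and Cy3, shared each of 8 two-colour arrays; per replicate there was 1 P5/adult array, 1 P5/P10 array and a dye-exchanged pair for P10 and adult. P5 RNA always carried Cy5, so its dye difference was taken from the P10 and adult exchange.

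Brain capillary endothelium is joined by tight junctions, and large molecules in plasma reach the brain mainly by binding receptors on the vessel wall. Transferrin with its iron is taken in by Tfrc through clathrin-coated pits and the receptor returns to the surface. Insulin, leptin, prolactin and the IGFs bind their own receptors, which both signal in the vessel cell and, for several of these hormones, take part in their passage into the brain. Insr and Igf1r are related tyrosine kinases, Lepr and Prlr are cytokine receptors that signal through Janus kinases and STAT factors, and Igf2r carries IGF2 and mannose-6-phosphate-tagged enzymes to lysosomes. None of the 8 genes is expressed by endothelium alone. The arrays measured whole preparations, so the cell type that carried each transcript is not resolved, and fewer cells of a type cannot be told apart from less RNA per cell.

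The endothelial content of the preparations was checked with 22 marker genes, each above background in at least 1 channel of every age. Of these, 21 were higher in adult than in P5 vessels and 0 were lower, with a median log2 ratio of 1.68, and all 22 were higher at P10 than at P5 (median 1.31). Between adult and P10, 9 were higher and 1 was lower, with a median of 0.43. Across all fitted probes, the fitted log2 ratios of the 2 replicates correlated at 0.901 for adult against P5, 0.814 for adult against P10 and 0.797 for P10 against P5, where probes of a slide share its arrays. Between 65.2% and 73.3% of spots on an array were well above background, and 0 receptor spots were saturated. Having only 2 replicates per age limits the precision.

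Prlr and Igf1r were higher in adult vessels than at either young age, Insr was higher in adult than in P5 vessels at all 3 of its probes, and Tfrc was higher at P10 than at P5 at all 3 of its probes. Igf2r and the brighter Lrp8 probe fell in adult vessels. In limma fits with Benjamini-Hochberg adjustment over all 27104 probes, 10 of the 16 tested receptor probes passed an adjusted p of 0.05 in adult against P5, with 8 higher and 2 lower. In that comparison 52.1% of all probes passed, 24% higher and 28.1% lower, so passing was common among all probes. In adult against P10, 5 of 16 passed, with 3 higher and 2 lower, against a background of 17.2% of all probes, 9.05% higher and 8.14% lower. In P10 against P5, 6 of 16 passed and all 6 were higher, against 40.2% of all probes, 18.7% higher and 21.4% lower. Probes of 1 gene share a target and are not independent. Where the background model was fitted on all spots as recorded, including the 4 and 7 spots of 2 arrays that had a faulty background, 5, 1 and 0 of the 16 probes passed in the 3 comparisons, and 5 of 16 had an unadjusted p below 0.05 in the last. At the brightest probe of each gene, 5 of the 8 genes passed in adult against P5, 4 in adult against P10 and 3 in P10 against P5, where 54.7%, 20.8% and 42.4% of the 15589 genes with a symbol passed.

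**Figure D1:**
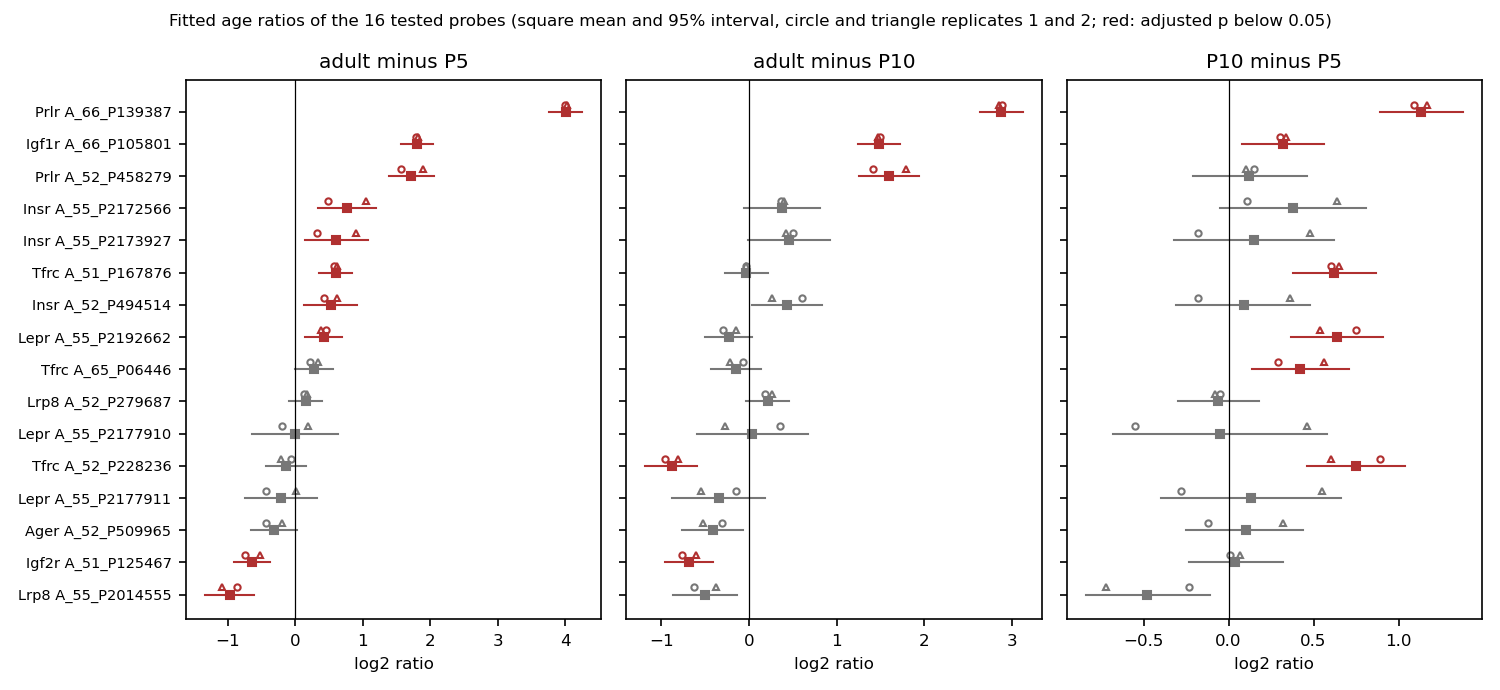
Fitted log2 ratios (x axis) of the 16 tested receptor probes (rows) for adult minus P5, adult minus P10 and P10 minus P5; squares are means with 95% intervals, circles and triangles the values of replicates 1 and 2, and red marks an adjusted p below 0.05. Prlr and Igf1r lie far to the right in both comparisons with adult vessels, and all red points of P10 minus P5 lie right of 0.

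Prlr, the receptor of the pituitary hormone prolactin, lies on mouse chromosome 15 and is known for high expression in the choroid plexus as well as in brain vessels. Promoter windows from RefSeq matched 7 of the 8 genes, all but Insr. RefSeq gives Prlr 3 transcription start sites in the table used here, and the 250 bases before each (build GRCm38.p6, plus strand) are shown because Prlr moved most and its probes differed. Capitals mark matches to 6 motifs searched on both strands: the STAT element GAS (TTCNNNGAA), SP1 (GGGCGG), LEF/TCF (CTTTGA), forkhead (GTAAACA), ETS (CCGGAAG) and the E-box (CACGTG).
Prlr start 1, chr15:10176988-10177237: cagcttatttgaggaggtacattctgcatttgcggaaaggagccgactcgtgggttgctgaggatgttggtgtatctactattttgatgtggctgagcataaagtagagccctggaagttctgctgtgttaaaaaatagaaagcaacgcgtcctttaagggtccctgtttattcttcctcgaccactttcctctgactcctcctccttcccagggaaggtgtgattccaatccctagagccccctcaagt
Prlr start 2, chr15:10223656-10223905: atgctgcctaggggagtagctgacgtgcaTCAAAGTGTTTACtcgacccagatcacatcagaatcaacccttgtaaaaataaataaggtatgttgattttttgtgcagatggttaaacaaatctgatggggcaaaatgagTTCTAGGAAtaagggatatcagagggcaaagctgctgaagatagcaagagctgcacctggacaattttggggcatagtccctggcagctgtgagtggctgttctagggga
Prlr start 3, chr15:10293401-10293650: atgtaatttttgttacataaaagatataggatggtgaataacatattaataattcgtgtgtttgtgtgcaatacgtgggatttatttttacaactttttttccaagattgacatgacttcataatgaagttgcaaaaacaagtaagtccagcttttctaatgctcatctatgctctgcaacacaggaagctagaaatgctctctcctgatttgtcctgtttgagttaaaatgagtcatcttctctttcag
The window of start 2 held a GAS match 110 bases before the start, a LEF/TCF match 221 bases and a forkhead match 215 bases before it; the last pair is printed as 1 run because the matches adjoin without overlap. The windows of starts 1 and 3 held none of the 6 motifs. Among 32841 windows of this length, 7.02% held a GAS match, 13.8% a LEF/TCF match, 3.17% a forkhead match, 32.7% an SP1 match, 6.91% an ETS match and 6.02% an E-box. GC content was 48%, 44.8% and 32.8% in the 3 Prlr windows, against a median of 52.4% over all windows. A match describes letters and is not a measured binding site.

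The brighter Prlr probe (A_66_P139387) had log2 normalised intensities of 6.93 and 7.30 in the 2 P5 samples, 8.05 and 8.40 in the P10 samples and 11.01 and 11.36 in the adult samples. The 3 ages did not overlap. It was 16.1-fold higher in adult than in P5 vessels, with a log2 ratio of 4.01 ± 0.10 (SE, n = 2) and an adjusted p of 0.000458 in limma. This ratio ranked 8 from the highest of all 27104 probes. It was 7.32-fold higher in adult than in P10 vessels (log2 2.87 ± 0.10, n = 2, adjusted p = 0.00149 in limma) and 2.19-fold higher at P10 than at P5 (log2 1.13 ± 0.10, n = 2, adjusted p = 0.00415 in limma). With the background fitted on all spots as recorded, these were 2.54 (adjusted p = 0.0513) and 0.46 (adjusted p = 0.343). On single arrays the log2 ratio of adult over P5 was 3.75 and 3.83, and that of adult over P10 was 2.93 and 2.83 in one dye order and 3.03 and 2.98 in the other. Both dye orders gave nearly the same Prlr ratio.

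The dimmer Prlr probe (A_52_P458279) gave smaller ratios in the same direction in both comparisons with adults. Its log2 intensities were 6.69 and 6.74 at P5, 6.97 and 6.93 at P10, and 8.31 and 8.80 in adults. It was 3.30-fold higher in adult than in P5 vessels (log2 1.72 ± 0.13, n = 2, adjusted p = 0.00106 in limma) and 3.03-fold higher in adult than in P10 vessels (log2 1.6 ± 0.13, n = 2, adjusted p = 0.00397 in limma). At P10 against P5 its log2 ratio was 0.12 with a 95% interval from -0.21 to 0.46, which did not pass, whereas the brighter probe did. With the deposited log ratios that comparison gave 0.53 at this probe (adjusted p = 0.0388). Which Prlr transcripts each probe detects is not given in the sources used here. Among markers of the choroid plexus, 9 of 12 were lower in adult than in P5 vessels and 1 was higher, with a median log2 ratio of -1.02; the higher one was Kl, the co-receptor klotho, at 1.30. In adult against P10, 8 of the 12 were lower and 1 was higher (median -0.80). With median centring of the arrays 3 and 2 of the 12 were lower. The log2 of the summed choroid plexus signal was 17.22 to 17.27 at P5, 16.44 to 17.44 at P10 and 15.39 to 16.13 in adults. In P10 against P5, 0 of the 12 passed (median -0.13, or 0.39 with median centring). The part of choroid plexus RNA in the Prlr values was not tested.

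The genes with the most similar age pattern to the brighter Prlr probe, by the root mean square difference over the 4 fitted ratios (adult minus P5 and adult minus P10 in each replicate), were Clic5 at 0.210, Sema3c at 0.223 and Flt1 at 0.353. Within 0.25 there were 2 genes. In adult against P5 the log2 ratios of Clic5, Sema3c and Flt1 were 3.75, 3.8 and 3.86. In adult against P10 they were 2.79, 3.1 and 2.42. These ratios share the adult samples.

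Igf1r, the tyrosine kinase receptor of IGF1 and IGF2 on chromosome 7, was measured by 1 bright probe (A_66_P105801). Its promoter window is shown beside that of Igf2r because the paired IGF receptors moved in opposite directions; capitals again mark motif matches.
Igf1r, chr7:67952007-67952256, plus strand: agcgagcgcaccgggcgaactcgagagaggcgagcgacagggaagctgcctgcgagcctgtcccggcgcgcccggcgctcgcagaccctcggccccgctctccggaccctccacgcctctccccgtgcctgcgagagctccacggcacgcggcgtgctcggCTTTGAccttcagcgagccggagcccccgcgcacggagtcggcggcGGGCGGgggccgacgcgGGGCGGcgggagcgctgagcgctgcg
Igf2r, chr17:12769707-12769956, minus strand, printed 5′ to 3′ along the gene: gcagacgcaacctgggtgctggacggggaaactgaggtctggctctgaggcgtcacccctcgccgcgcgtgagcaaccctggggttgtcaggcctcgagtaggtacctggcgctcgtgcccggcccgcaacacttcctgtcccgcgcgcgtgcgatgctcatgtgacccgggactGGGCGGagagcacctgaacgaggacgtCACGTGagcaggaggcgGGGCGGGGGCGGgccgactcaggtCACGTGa
The Igf1r window was 77.6% GC with 42 CpG dinucleotides and held SP1 matches 43 and 26 bases before the start and a LEF/TCF match 89 bases before it. The Igf2r window was 69.2% GC with 27 CpG dinucleotides and held SP1 matches at 75, 31 and 25 bases, the last pair adjoining, and E-boxes at 48 and 7 bases before the start. SP1 matches were in both windows, as in 32.7% of all windows.

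Igf1r had log2 intensities of 11.81 and 11.48 at P5, 12.18 and 11.96 at P10, and 13.63 and 13.37 in adults. Adult samples lay above all samples of the younger ages. It was 3.48-fold higher in adult than in P5 vessels (log2 1.80 ± 0.09, n = 2, adjusted p = 0.000554 in limma) and 2.79-fold higher in adult than in P10 vessels (log2 1.48 ± 0.09, n = 2, adjusted p = 0.00256 in limma). P10 against P5 gave a small ratio, 1.25-fold (log2 0.32 ± 0.09, n = 2, adjusted p = 0.0475 in limma), and 6 of 12 alternative settings did not call it, including the P5/P10 arrays left out (log2 0.23, adjusted p = 0.142). The ratio stayed positive under all 12, at 0.23 to 1.08. Beside the rise in adult against P10, 6 of 8 myelin markers (median log2 ratio 1.30) and 7 of 10 mature neuron markers (median 1.02) were also higher in adult vessels. The log2 of the summed myelin signal was 12.89 to 13.42 at P5, 13.64 to 14.44 at P10 and 15.84 to 15.87 in adults, and that of mature neurons was 14.32 to 14.57, 13.77 to 14.11 and 14.49 to 15.07. Every measured gene of both lists was above background in some channel of each age, and their part in the Igf1r result was not tested. The nearest patterns to Igf1r were those of Gpr37 (root mean square difference 0.0855), Fxyd5 (0.0884) and Cmpk2 (0.0939), and 56 genes lay within 0.25.

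Igf2r, the clearing receptor for IGF2 and for mannose-6-phosphate, was printed on 10 spots of each array and fell in adult vessels. Its log2 intensities were 10.63 and 10.40 at P5, 10.48 and 10.40 at P10, and 9.73 and 9.76 in adults. Both adult samples lay below all 4 younger samples, while P5 and P10 overlapped. It was 1.56-fold lower in adult than in P5 vessels (log2 -0.64 ± 0.11, n = 2, adjusted p = 0.00763 in limma) and 1.6-fold lower in adult than in P10 vessels (log2 -0.68 ± 0.11, n = 2, adjusted p = 0.0174 in limma). P10 against P5 was 0.04 with a 95% interval from -0.23 to 0.32. Spots of the probe on 1 array varied with an SD of 0.04 to 0.06. The dye orders differed more than that: adult over P10 was -1.06 and -0.82 with adult RNA in Cy3, and -0.48 and -0.40 with adult RNA in Cy5. When arrays were centred on their median in place of loess, the adult minus P5 ratio was -0.11 (adjusted p = 0.692), where the median shift over all probes was 0.24, and adult minus P10 was -0.69 (adjusted p = 0.13). Fibroblast markers were lower in adult than in P10 vessels at 5 of 8 genes and higher at 0 (median -0.84), with summed log2 signals of 15.05 to 15.48 at P5, 15.80 to 15.98 at P10 and 14.90 to 14.90 in adults; their part in the Igf2r result was not tested. The nearest patterns were those of Efna4, Rassf2 and Flna, and 392 genes lay within 0.25.

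Insr, the insulin receptor on chromosome 8, was modestly higher in adult than in P5 vessels at each of its 3 probes. The brightest (A_52_P494514) had log2 intensities of 9.24 and 8.98 at P5, 9.16 and 9.44 at P10, and 9.74 and 9.72 in adults. The adult samples lay above all younger ones, and P5 and P10 overlapped. Adult over P5 was 1.44-fold (log2 0.53 ± 0.15, n = 2, adjusted p = 0.0387 in limma). The other 2 probes gave log2 ratios of 0.61 ± 0.18 (adjusted p = 0.0424) and 0.76 ± 0.17 (adjusted p = 0.0169). Adult over P10 was 0.44, 0.46 and 0.38 at the 3 probes, with adjusted p of 0.125, 0.165 and 0.197, and P10 over P5 was 0.09, 0.15 and 0.38, with adjusted p of 0.667, 0.542 and 0.129. The order of adjacent ages is thus not resolved for Insr, only that of adult against P5. At the brightest probe the call was lost with no filter on dim probes (adjusted p = 0.0535), with the 2 arrays that hold faulty background spots left out (0.0831) and with the background fitted on all spots (0.154). A_55_P2173927 also lost it with no filter (0.064), and with the background fitted on all spots none of the 3 probes passed (0.106 at A_55_P2173927 and 0.0609 at A_55_P2172566). Beside these ratios, 21 of 22 endothelial markers were higher and 0 lower in adult than in P5 vessels (median 1.68). The part of endothelial content in the Insr values was not tested.

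Tfrc, the transferrin receptor on chromosome 16, peaked at P10 at its most replicated probe. That probe (A_52_P228236), printed on 10 spots, had log2 intensities of 11.02 and 11.08 at P5, 12 and 11.81 at P10, and 10.97 and 10.99 in adults. Both P10 samples lay above the others. P10 was 1.68-fold higher than P5 (log2 0.75 ± 0.11, n = 2, adjusted p = 0.011 in limma), and adult was 1.85-fold lower than P10 (log2 -0.88 ± 0.11, n = 2, adjusted p = 0.0109 in limma; -0.91 and 0.105 with median centring). Adult against P5 gave -0.14, with a 95% interval from -0.43 to 0.16. Spots on 1 array varied with an SD of 0.03 to 0.08.

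The other Tfrc probes shared the step between P5 and P10 but not the later one. A_65_P06446 had log2 intensities of 11.35 and 10.81 at P5, 11.78 and 11.23 at P10, and 11.68 and 11 in adults. It was higher at P10 than at P5 within each replicate, at 0.42 ± 0.11 (n = 2, adjusted p = 0.0362 in limma), while adult against P10 was -0.15 (adjusted p = 0.446). Its call at P10 was lost without the replicate block (adjusted p = 0.364) and with the 2 arrays that hold faulty background spots left out (0.111). A_51_P167876 had 7.43 and 7.52 at P5, 8.24 and 8.14 at P10, and 8.07 and 8.18 in adults, so P10 and adult overlapped and both lay above P5. It was 0.62 ± 0.09 higher at P10 than at P5 (adjusted p = 0.011) and 0.60 ± 0.09 higher in adult than in P5 vessels (adjusted p = 0.00662), with adult against P10 at -0.03 (95% interval -0.27 to 0.22). The adult against P5 call was lost with the 2 arrays left out (0.47, adjusted p = 0.061) and with the background fitted on all spots (0.48, adjusted p = 0.0592). A fall of Tfrc after P10 was therefore seen at 1 of 3 probes, and a higher level at P10 than at P5 at all 3. Where in the transcript each probe lies is not given in the sources used here.

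Young red cells and dividing cells also carry abundant Tfrc. Of 12 erythroid markers, 9 were lower at P10 than at P5 and 0 were higher (median log2 ratio -2.11), and 6 were lower and 1 higher in adult against P10 (median -1.46). Their summed log2 signal was 21.27 to 21.44 at P5, 18.41 to 18.70 at P10 and 16.33 to 16.70 in adults. Of 7 genes of dividing cells, 5 were higher at P10 than at P5 (median 0.45), and 7 of 7 were lower in adult than in P10 vessels (median -3.28), with summed log2 signals of 13.70 to 13.74 at P5, 13.60 to 13.92 at P10 and 9.86 to 9.96 in adults. Markers of vessel wall cells were also higher at P10 than at P5, at 22 of 22 endothelial genes (median 1.31) and 9 of 11 pericyte genes (median 0.86). The part of red cells, dividing cells and vessel wall cells in the Tfrc values was not tested. The nearest patterns to the 10-spot probe were those of S100a6 (root mean square difference 0.0655), Ly6g6d (0.0828) and Mcm4 (0.0853), and 177 genes lay within 0.25.

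Lepr, the leptin receptor on chromosome 4, passed in some comparison at 1 of its 3 tested probes. The 95% intervals of the 3 probes overlapped in each comparison, and a difference between probes was not tested. The 2 brightest carry 1 transcript accession, and the other 2 probes carry another each. The brightest (A_55_P2177910) had log2 intensities of 9.59 and 10.20 at P5, 9.96 and 10.62 at P10, and 10.09 and 10.32 in adults. All ages overlapped, and adult against P5 was 0.00 ± 0.25 with a 95% interval from -0.64 to 0.63. The dye orders of replicate 1 went opposite ways at this probe, with adult over P10 at 0.80 with adult RNA in Cy3 and at -0.36 with adult RNA in Cy5, and this limits its precision. A_55_P2177911 gave -0.21 in adult against P5, -0.34 in adult against P10 and 0.13 in P10 against P5, none of which passed (adjusted p = 0.421, 0.332 and 0.625).

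The third Lepr probe (A_55_P2192662) had log2 intensities of 6.96 and 7.05 at P5, 7.77 and 7.61 at P10, and 7.46 and 7.49 in adults. The ages did not overlap. It was 1.56-fold higher at P10 than at P5 (log2 0.64 ± 0.11, n = 2, adjusted p = 0.0127 in limma) and 1.33-fold higher in adult than in P5 vessels (log2 0.42 ± 0.11, n = 2, adjusted p = 0.0253 in limma). With median centring the adult against P5 call was lost (adjusted p = 0.127). With the background fitted on all spots both calls were lost, at 0.54 in P10 against P5 (adjusted p = 0.143) and 0.43 in adult against P5 (adjusted p = 0.145). Adult against P10 was -0.23 (adjusted p = 0.219). The last Lepr probe (A_66_P130517) did not pass the filter and was not tested: it was not well above background in any of the 6 adult channels, against 3 of 6 P10 channels and 3 of 4 P5 channels. Its log2 intensities were 6.45 and 6.32 at P5, 6.29 and 6.43 at P10, and 6.25 and 6.13 in adults. The P10 channels above background were all of replicate 2, so no fold is given.

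Lrp8, also called the apolipoprotein E receptor 2, binds reelin in neurons and lies on chromosome 4. Its probes disagreed although both carry the same transcript accession. The brighter (A_55_P2014555) had log2 intensities of 11.64 and 11.61 at P5, 11.37 and 10.76 at P10, and 10.76 and 10.37 in adults. P10 and adult samples lay below both P5 samples, and P10 met adults at 10.76. Adult was 1.97-fold lower than P5 (log2 -0.97 ± 0.14, n = 2, adjusted p = 0.00525 in limma), a call that was lost with median centring (-0.37, adjusted p = 0.313). Adult against P10 was -0.50 (adjusted p = 0.076) and P10 against P5 was -0.48 (adjusted p = 0.0502), which passed under 4 of 12 alternative settings and was 0.15 with median centring. The dimmer probe (A_52_P279687) had 8.47 and 8.46 at P5, 8.46 and 8.37 at P10, and 8.63 and 8.64 in adults, with an adult minus P5 ratio of 0.16 (95% interval -0.09 to 0.40, adjusted p = 0.215). A fall of Lrp8 thus rests on 1 of 2 probes. Immature neuron markers were lower in adult than in P5 vessels at 12 of 13 genes (median -2.11), with summed log2 signals of 15.23 to 15.27 at P5, 13.89 to 14.14 at P10 and 13.06 to 13.13 in adults, and their part in the Lrp8 result was not tested. Zdhhc2, Fgd2 and Sulf2 had the nearest patterns to the brighter probe, and 301 genes lay within 0.25.

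Ager, on chromosome 17, encodes the receptor that binds glycated proteins, S100 proteins and amyloid beta at the vessel wall. Its 1 probe was dim, with log2 intensities of 6.91 and 6.72 at P5, 6.73 and 6.94 at P10, and 6.49 and 6.48 in adults. It was well above background in all P5 and P10 channels but in 3 of 6 adult channels, all of replicate 2. Adult against P5 was -0.31 with a 95% interval from -0.66 to 0.03 (adjusted p = 0.106 in limma), and adult against P10 was -0.41 (adjusted p = 0.105). P10 against P5 was 0.10 (95% interval -0.25 to 0.44). No age difference of Ager passed, and the adult minus P5 difference passed under 2 of 11 alternatives, at -1.04 with the deposited log ratios (adjusted p = 0.0451) and at -0.67 with median centring (adjusted p = 0.0459).

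**Figure D2:**
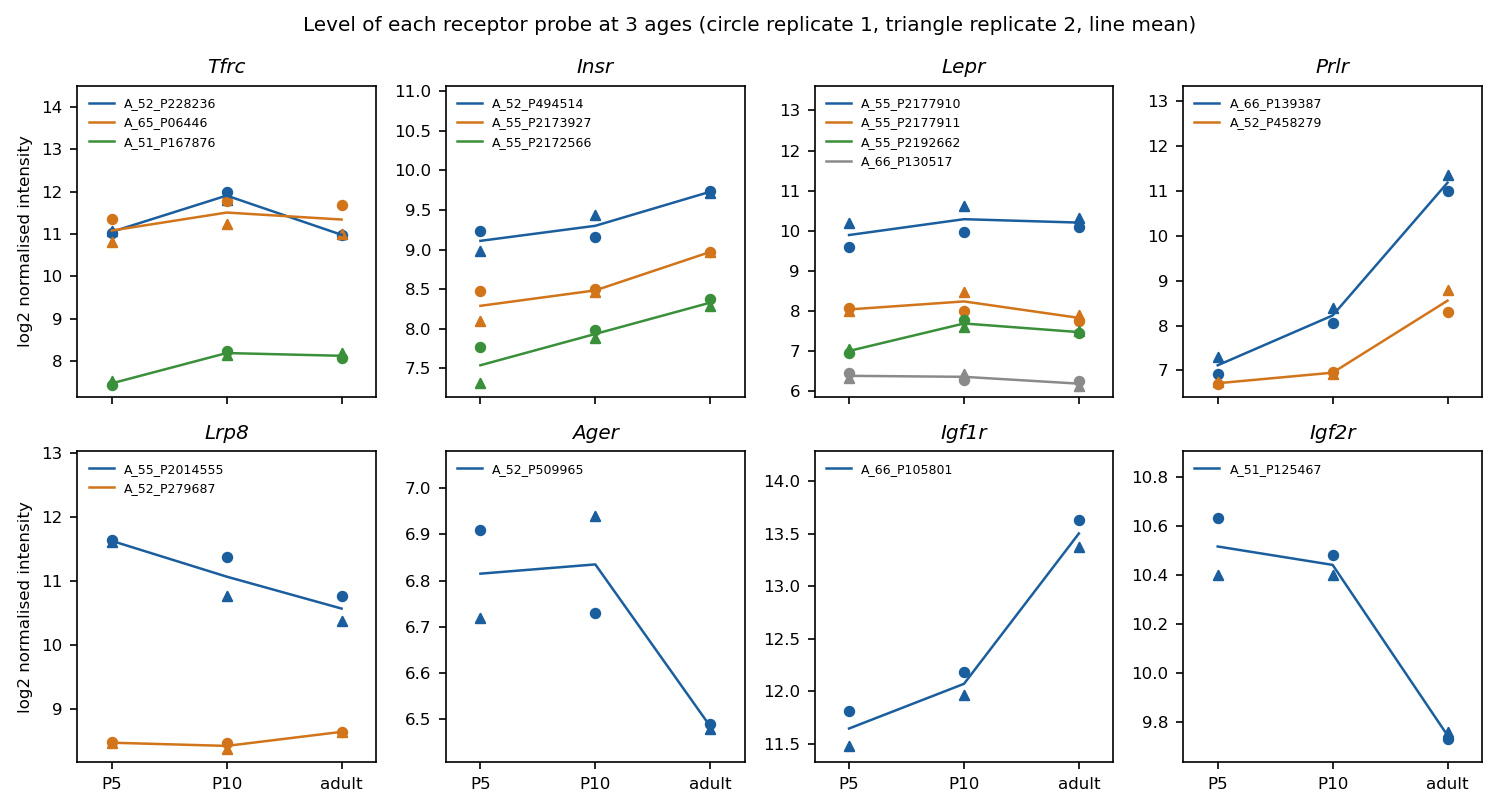
Log2 normalised intensity (y axis) of each receptor probe at P5, P10 and adult (x axis); circles are replicate 1, triangles replicate 2, lines their mean, and the grey Lepr probe was not tested. Prlr and Igf1r are highest in adults, the 10-spot Tfrc probe peaks at P10 at 12 and 11.81, and Igf2r is lowest in adults at 9.73 and 9.76; y axes differ between panels.

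The timing of the changes was compared as the later step (adult minus P10) minus the earlier step (P10 minus P5), a contrast added after the data had been seen. At the brighter Prlr probe the later step was larger by 1.74 ± 0.17 on the log2 scale (n = 2, adjusted p = 0.0126 in limma), and at the dimmer one by 1.48 ± 0.23 (adjusted p = 0.0254). For Igf1r it was larger by 1.16 ± 0.16 (adjusted p = 0.0219). The difference was -1.63 ± 0.20 at the 10-spot Tfrc probe (adjusted p = 0.0175) and -0.87 ± 0.18 at the third Lepr probe (adjusted p = 0.046). In this contrast 5 receptor probes passed, and 11.7% of all probes did, 5.55% higher and 6.18% lower. Among the 22 endothelial markers the later step was called smaller at 10 genes and larger at 2, Flt1 at 0.98 and Ly6a at 0.92, with a median of -0.98 and a range from -2.41 to 0.98. The Prlr and Igf1r differences thus lay above all 22 markers, whose earlier step was mostly the larger one. These calls did not hold everywhere: with median centring the brighter Prlr probe gave 1.44 (adjusted p = 0.0583) and Igf1r 0.31 (adjusted p = 0.617), and without the replicate block they gave 1.84 (0.0623) and 1.01 (0.132). Over the alternatives, the brighter and dimmer Prlr probes were called in 8 of 12 and 8 of 11, Igf1r in 7 of 12, the 10-spot Tfrc probe in 11 of 12 and the third Lepr probe in 3 of 11 (adjusted p up to 0.395).

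**Figure D3:**
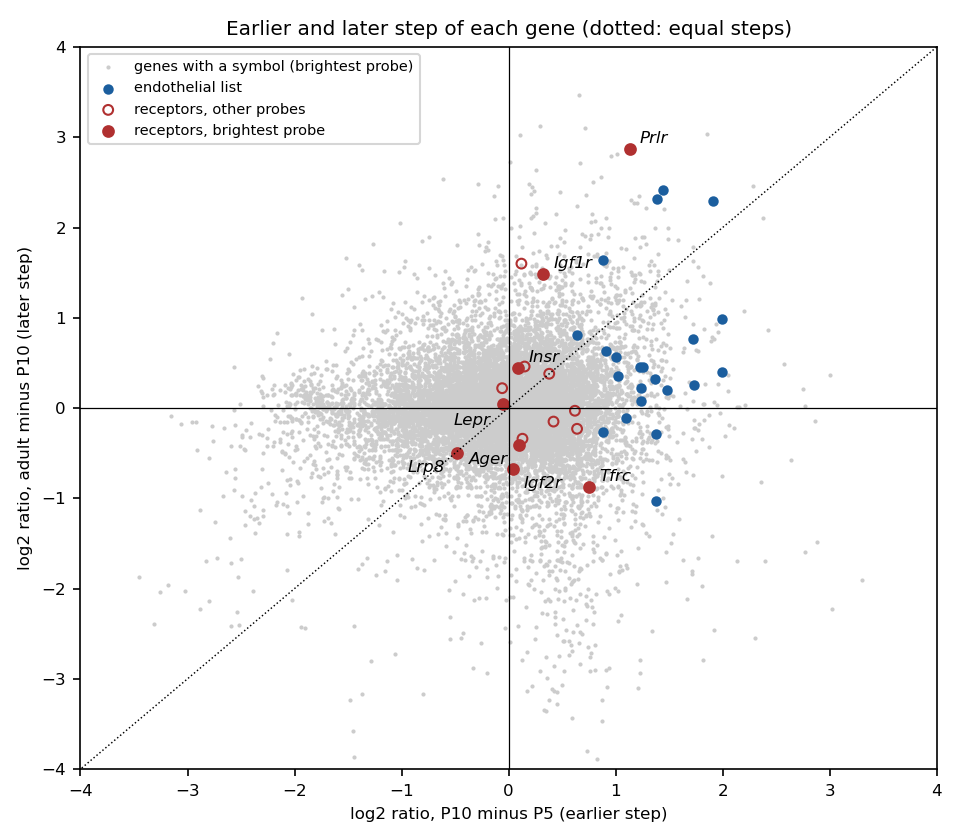
Log2 ratio of adult minus P10 (y axis, later step) against P10 minus P5 (x axis, earlier step) for genes with a symbol at their brightest probe (grey), 22 endothelial markers (blue) and the receptors (red, open for further probes); 4 grey genes lie outside the axes. Prlr at 1.13 and 2.87 and Igf1r at 0.32 and 1.48 lie above the dotted line of equal steps, and Tfrc at 0.75 and -0.88 lies below it.

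Binding proteins hold IGFs in the extracellular space. Of 9 measured IGF ligands and binders, 1 was higher and 4 were lower in adult than in P5 vessels (median log2 ratio -0.33, or 0.02 with median centring), 0 were higher and 4 lower in adult against P10 (median -0.72), and 4 were higher and 0 lower in P10 against P5 (median 0.40). The same counts over all genes were 27.7% higher and 27% lower, 11.2% and 9.59%, and 21.9% and 20.4%. Igfbp7 was higher in adult than in P5 vessels by 1.67 (adjusted p = 0.000851), whereas Igfbp4 was lower in both comparisons, at -1.56 against P5 and -2.03 against P10 (adjusted p = 0.00149 and 0.00267). Igfbp1 was -0.45 in adult against P5 and -2.12 in adult against P10 (adjusted p = 0.0174 and 0.00174), and 1.67 in P10 against P5 (adjusted p = 0.0035), so it was highest at P10. Its probe was not above background in all channels of every age. The adult against P10 ratio of Igfbp1 ran from -4.19 to -1.55 over 11 alternatives and was called under 10 (adjusted p up to 0.179). The ligands, named here for that role and outside the naming rule, were at -0.12 for Igf1 (adjusted p = 0.534) and -0.86 for Igf2 (adjusted p = 0.0358) in adult against P5.

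Of 23 genes of insulin and IGF signalling, 10 were higher and 3 lower in adult than in P5 vessels (median 0.19), or 13 and 1 with median centring (median 0.65), and 3 were higher and 1 lower in adult against P10 (median 0.14). Grb14, an adaptor that inhibits the insulin receptor, was 1.99 ± 0.11 higher in adult than in P5 and 1.46 ± 0.11 higher in adult than in P10 vessels (adjusted p = 0.000621 and 0.00334). Pik3cb, a catalytic subunit of phosphoinositide 3-kinase, was higher by 1.30 and 0.82 (adjusted p = 0.00124 and 0.0112). Irs1, the insulin receptor substrate, was lower in both comparisons, at -0.59 and -0.67 (adjusted p = 0.0195 and 0.0331), called under 9 and 8 of 12 alternatives. Insrr, the insulin receptor-related receptor that senses alkaline pH, had -2.59 in adult against P5 (adjusted p = 0.00271) and -0.99 in adult against P10 (adjusted p = 0.0822).

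Of 18 genes of the JAK and STAT pathway used by Prlr and Lepr, 13 were higher and 0 lower in adult than in P5 vessels (median 0.51), 6 were higher and 0 lower in adult against P10 (median 0.24), and 7 were higher and 1 lower in P10 against P5 (median 0.31). The 13 became 7 without the replicate block and 4 with the background fitted on all spots. The 6 became 0 under both of these, with median centring and with the 2 arrays that hold faulty spots left out. Stat5b, a main effector of prolactin signalling, was higher in adults by 0.99 ± 0.09 against P5 and 0.55 ± 0.09 against P10 (adjusted p = 0.0018 and 0.0224). It is named for that role, lies outside the naming rule and was not recomputed singly. Its call against P10 was among the 6 that were lost under the settings named above. Leprotl1, a small membrane protein related to the Lepr overlapping transcript, was higher by 0.65 and 0.58 (adjusted p = 0.00594 and 0.0218). The shared cytokine receptor chain Il6st was higher by 1.49 and Lifr by 1.22 in adult against P5 (adjusted p = 0.00124 and 0.00128). Ghr, the growth hormone receptor and a close relative of Prlr, was at 0.50 in adult against P5 (adjusted p = 0.0252) and -0.12 in adult against P10 (adjusted p = 0.606). The adult minus P5 ratio of Prlr was 4.01 at its brighter probe and 1.72 at its dimmer one, against 1.49 for Il6st, the highest of these 18 genes.

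In the iron pathway around Tfrc, 4 of 16 genes were higher and 2 lower in adult than in P5 vessels (median -0.07, but 0.27 with median centring and 0.04 with the deposited log ratios), and 2 were higher and 4 lower in adult against P10 (median -0.11). Cp, the ferroxidase ceruloplasmin, was 2.00 ± 0.13 higher in adult than in P5 and 1.05 ± 0.13 higher in adult than in P10 vessels (adjusted p = 0.000809 and 0.00973), and Trf, transferrin itself and also an oligodendrocyte transcript, was higher by 0.81 and 0.84 (adjusted p = 0.0049 and 0.0129). The iron exporter Slc40a1 was 1.09 higher in adult than in P5 vessels (adjusted p = 0.00547). Tfr2, the second transferrin receptor, known from liver and red cell precursors, was lower in both, at -1.85 in adult against P5 (adjusted p = 0.000837), and at -0.55 in adult against P10 (adjusted p = 0.0415), the second being called under 5 of 12 alternatives (adjusted p up to 0.221).

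Among 19 relatives and partners of Lrp8, 5 were higher and 6 lower in adult than in P5 vessels (median -0.03, but 0.49 with median centring and 0.01 with the deposited log ratios), and 3 were higher and 0 lower in adult against P10 (median 0.10). Vldlr, the other reelin receptor, had -1.49 in adult against P5 at its brighter probe (adjusted p = 0.00153) and -0.23 at its other probe, and Reln itself had -0.62 (adjusted p = 0.00775). Of 13 ligands and partners of Ager, 6 were higher and 1 lower in adult against P5 (median 0.47), among them the astrocyte protein S100b at 2.02 (adjusted p = 0.00417) and S100a1 at 1.40 (adjusted p = 0.0022), and S100a4 was the lower one at -0.54 (adjusted p = 0.0366), called under 5 of 12 alternatives with values of -0.58 to -0.08. Of 15 genes of mannose-6-phosphate sorting, 6 were higher and 4 lower in adult than in P5 vessels (median 0.25), or 7 and 0 with median centring (median 0.63). M6pr, the smaller mannose-6-phosphate receptor, was at 0.68 in adult against P5 (adjusted p = 0.00512), whereas Igf2r was at -0.64.

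The clathrin route that takes in Tfrc held many genes that were higher in adult than in P5 vessels. Over all genes with a symbol, 27.7% were higher and 27% lower in adult against P5. These shares were 21.9% and 20.4% in P10 against P5, and 11.2% and 9.59% in adult against P10. Of 23 genes, 15 were higher and 0 lower in adult than in P5 vessels (median 0.61), 12 were higher and 2 lower in P10 against P5 (median 0.38), and 5 were higher and 1 lower in adult against P10 (median 0.16). With median centring the medians were 1.16 in adult against P5 and 1.03 in P10 against P5. With the 2 arrays that hold faulty spots left out, 5 were higher in P10 against P5 and 1 in adult against P10, and with the background fitted on all spots 0 passed in either. Ehd4 and Ehd3, which return receptors from endosomes to the surface, were higher by 1.39 and 1.27 in adult against P5 (adjusted p = 0.0013 and 0.00103). Ehd3 is named for that role and lies outside the naming rule, which took Cltb. Cltb was called higher in adult against P5 under 12 of 12 alternatives, at 1.08 to 1.81. Dnm1, the neuronal dynamin, was higher by 1.38 and Epn2, an epsin of coated pits, by 0.76 in adult against P10 (adjusted p = 0.00665 and 0.0223). Many of these genes are expressed by cells of several types.

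**Figure D4:**
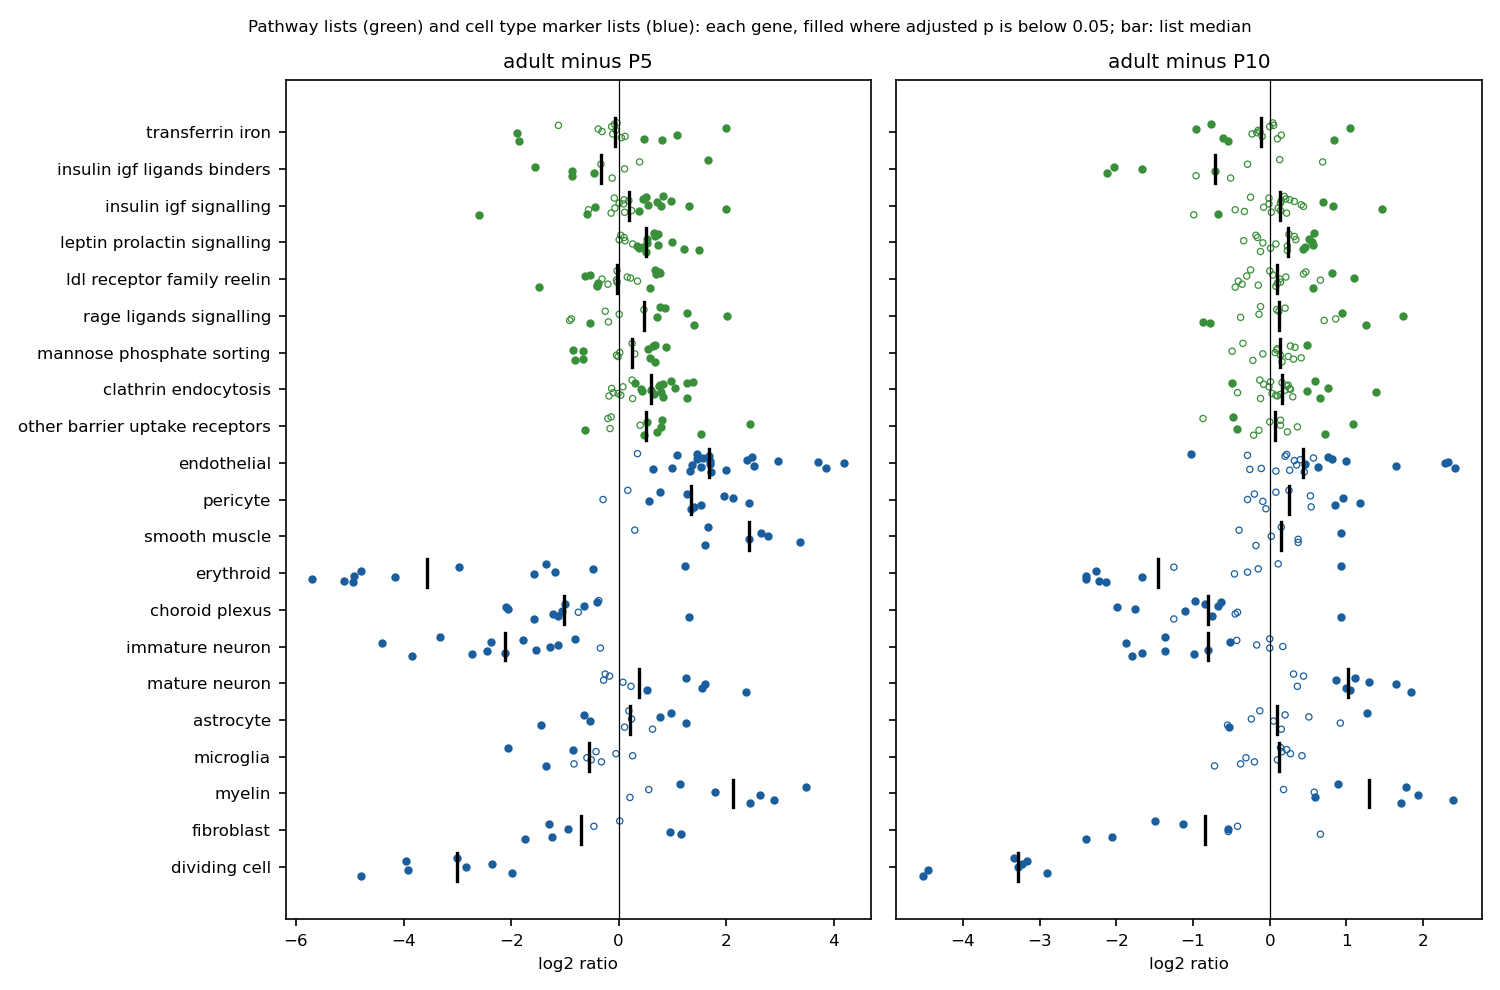
Log2 ratios (x axis) of adult minus P5 and adult minus P10 for each measured gene of the pathway lists (green) and cell type marker lists (blue), filled where the adjusted p is below 0.05, with a bar at the list median. The endothelial median is 1.68 against P5 and 0.43 against P10, the erythroid medians are -3.57 and -1.46 with 1 gene higher in each, all 7 dividing cell genes lie to the left, and the pathway medians lie between -0.72 and 0.61.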

How the data were processed

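RNA of mouse forebrain microvessels had been labelled from 100 ng per sample and hybridised to 8 Agilent arrays, 4 per slide, with 1 slide per replicate. The deposited files hold the scanner's intensity of each spot in both dyes and, per the file headers, a log10 ratio of red over green made by Agilent Feature Extraction 10.5.1.1; the submitters' processing notes name version 12.6. Median intensity was corrected with normexp (offset 50, limma 3.58.1, R 4.3.3, data.table version 1.17.8), after 4 spots on 1 array and 7 on another that lay more than 100 below their background had been given the array's median background; these and outlier spots were then left out. Each array was normalised by loess (span 0.3), and spots of a probe were averaged. The 4 ratios of a slide were solved by least squares with a dye term into 1 value per age. limma fitted age with the replicate as a block (2 residual and 3.05 prior degrees of freedom), with Benjamini-Hochberg adjustment over 27104 probes. Probes were kept where all channels of some age were well above background. Array ratios of exchanged dyes correlated at -0.882 and -0.915 in the 2 replicates. Same-numbered samples of the 3 ages share a slide, which is where the pairing comes from; whether they share animals is not given in the sources used here. Receptor levels are log2 intensities after loess and Aquantile, averaged over a sample's channels. They keep the dye difference, and P5 RNA always carried Cy5. With the dye term removed, the brightest Lepr probe was at 10.17 in place of 9.59 in the P5 sample of replicate 1. Summed marker signals were taken from levels with the dye term removed.

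Probes were named through their accession in RefSeq's GRCm38.p6 annotation: 27427 of 39429 had a symbol. The fit was also run on simulated data in which each probe had the same dye effect on both slides. Measured dye differences varied between slides at some probes, such as the brightest Lepr probe (-0.58 and -0.14). No result here rests on that run. The members and lists were chosen with earlier results of these data known, and the later-minus-earlier contrast was added after seeing the data. Besides the members, the naming rule took the 2 highest and 2 lowest called genes of each pathway list in each comparison with adults, close relatives of the receptors, the highest and lowest marker of each list, and the 3 nearest patterns. Alternatives changed the background, normalisation, filter, dye term, arrays used, probes per gene and replicate block. Probe positions and sequences were not used here.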

Additional observations from a re-analysis of the deposited data

How the results depend on the processing

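No result changed direction past the threshold. Of 645 recomputed receptor values, 31 lost and 11 gained a call. Of 870 recomputed values of pathway genes taken by the naming rule, 108 lost a call. Both totals include values with 1 replicate left out, which had no test and so could neither lose nor gain a call. Prlr (brighter probe) stayed called in adult against P5 under 12 of 12 alternatives, at 3.00 to 4.96, and Igf1r in both comparisons with adults, at 1.62 to 2.47 and 1.39 to 1.54. With the background fitted on all spots as recorded, calls over all probes fell to 6414 in adult against P5, 270 in adult against P10 and 33 in P10 against P5, against 14119, 4659 and 10885 with the faulty spots set aside; receptor probes fell to 5, 1 and 0, against 10, 5 and 6, and pathway genes to 46, 2 and 0 of 148, against 88, 39 and 72. In P10 against P5, 5 receptor probes and 64 pathway genes then had an unadjusted p below 0.05 in limma. Median centring gave 1471 probes, 3 receptor probes and 11 pathway genes in adult against P10; it shifted probes by a median of 0.24 in adult against P5 and P10 against P5, and the share of calls that were higher was 54.9% in place of 46.1% and 60.9% in place of 46.6%. Leaving out the 2 arrays with faulty spots gave 2259 probes in adult against P10 and 6723 in P10 against P5, and 17 and 39 pathway genes. The deposited log ratios gave 24 pathway genes in adult against P10. With 1 probe per gene, where fewer features are tested, 8842 and 7006 were called in adult against P5 and P10 against P5. Except for that, the cause was not tested. Without the replicate block, 2176 probes were called in adult against P10 and 6416 in P10 against P5, with 17 pathway genes in adult against P10; 10, 5 and 4 receptor probes were then called, the losses being Igf1r (0.42, adjusted p = 0.139) and Tfrc A_65_P06446 (0.43, adjusted p = 0.364) in P10 against P5. Leaving out 1 replicate leaves no residual degrees of freedom among samples, so it gave values with no test and no counts. Dim probes such as Ager and the last Lepr probe are limited by their signal over background.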

Other observations

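Among 12 other receptors and transporters of uptake at the barrier, 7 were higher and 1 was lower in adult than in P5 vessels (median log2 ratio 0.51), and 2 were higher and 2 lower in adult against P10 (median 0.07), or 0 and 0 with median centring. Bsg, the glycoprotein basigin of brain endothelium, was higher by 2.45 ± 0.15 in adult against P5 and by 1.09 ± 0.15 in adult against P10 (n = 2, adjusted p = 0.000734 and 0.0124 in limma). Fcgrt, the neonatal Fc receptor that carries immunoglobulin G, was higher by 1.53 and 0.72 (adjusted p = 0.00132 and 0.0249 in limma), the second called under 7 of 12 alternatives. The other vessel wall cells also had higher markers in adult than in P5 vessels, at 9 of 11 pericyte genes (median 1.35) and 6 of 7 smooth muscle genes (median 2.42). Astrocyte markers were higher at 3 and lower at 3 of 10 genes (median 0.21, or 0.71 with median centring). Microglial markers were higher at 0 and lower at 3 of 10 (median -0.55), but the medians of replicates 1 and 2 were 0.04 and -1.02, and with median centring the median was -0.05 with 1 lower.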
